A study of Drosophila melanogaster with 2 samples.

Results

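The gene kay encodes Fos of the fly, a bZIP transcription factor. With Jra, the Jun of the fly, it forms the dimer AP-1, which is known for binding the near-palindromic site TGACTCA and for acting downstream of stress kinases. Male flies carry a single X chromosome. They make up for it by dosage compensation, in which the MSL complex and the noncoding roX RNAs spread over the X from entry sites rich in GA repeats and raise transcription there. The regions described here are the kay peaks on that single X. They are all peaks on chromosome X in the list called on both replicates pooled, on the genome build dm6, and they number 463 of 4350 peaks. Of the other peaks, 3854 lay on the autosomes and 33 on the mitochondrial chromosome. The authors label this list as peaks and background, the input to the irreproducible discovery rate step. By that label it also holds background, and only 6.81% of its nuclear peaks had a q-value of at most 0.05. On the X no peak with a signal of 90.9 or less reached that limit, so lower ones are listed peaks and not significant calls. The autosomal peaks of the same list are the comparison used below.

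Binding was measured by chromatin immunoprecipitation with sequencing (ChIP-seq) in whole adult males of a transgenic line with GFP fused to the C-terminal end of kay, through an antibody against GFP. There is 1 group, kay-GFP adult males of unknown age, with 2 biological replicates that the labels number 1 and 3. Chromatin was sonicated to between 200 and 800 bp. Since whole flies were used, every peak is an average over all tissues, and no source used here describes the promoter or the cells that drive the tagged protein. No control library was analysed here. Fewer copies of the X in a male nucleus and less binding per copy cannot be told apart in these lists, since every fly was male. The replicate lists held 2060 peaks for replicate 1 and 13835 for replicate 3, and the sources used here give no read depth. Each peak carries the authors' q-value and the authors' signal, a positive number that orders the peaks of a list and is not compared between lists. The summit of a peak is the position the authors gave as its highest point, and nearly all peaks had the same width of 420 bp. Intervals of shares are 95% Wilson intervals and cover counting error only, and all Fisher's exact tests are two-sided. In these tests each peak counts as independent, so they say nothing of the spread between flies.

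The X peaks with an AP-1 site near the summit are shown first, because that site is the one kay is known to bind. The stretches below are from the Release 6 genome sequence of RefSeq on dm6, plus strand, 5′ to 3′, with the site in capitals. TGAGTCA is the reverse complement of TGACTCA. The 6 regions shown are a selection, at genes of known role, from the 10 X peaks of highest signal that hold the site. The Mlc-c promoter peak is among those 10 and is not shown. It had a signal of 105, above Rala, Hex-A and Imp, with the site 94 bp from its summit. sqh encodes the regulatory light chain of nonmuscle myosin, Zw glucose-6-phosphate dehydrogenase, Pp2C1 a protein phosphatase, Rala a Ras-like GTPase, Hex-A a hexokinase, and Imp an mRNA-binding protein.
sqh promoter (chrX:6224529-6224553): gcagctctcTGAGTCActcgcgcaa
Zw intron (chrX:19668545-19668595): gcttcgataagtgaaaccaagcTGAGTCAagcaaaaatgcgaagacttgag
Pp2C1 intron (chrX:4684714-4684764): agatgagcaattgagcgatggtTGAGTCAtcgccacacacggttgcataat
Rala intron (chrX:3718683-3718733): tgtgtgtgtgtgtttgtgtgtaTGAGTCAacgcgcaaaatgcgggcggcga
Hex-A promoter (chrX:9585594-9585644): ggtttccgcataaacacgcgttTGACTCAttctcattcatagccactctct
Imp intron (chrX:10805994-10806044): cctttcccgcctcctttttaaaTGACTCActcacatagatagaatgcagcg

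The second group of sequences shows the simple repeats that were more common at X summits than at autosomal ones. The peaks shown all lie in ranks 1 to 500 by signal, where neither difference passed the test, as given below. Capitals mark GAGAGAG or its reverse complement CTCTCTC in the stretches labelled GA, and CACACAC or its reverse complement GTGTGTG in those labelled CA, with overlapping copies run together. GA repeats are bound by GAGA factor and by CLAMP, an adaptor of the MSL complex. Ptpmeg2 encodes a protein tyrosine phosphatase, and CkIalpha encodes a casein kinase. The Hex-A and Rala stretches lie within the same peaks as the AP-1 sites above, and the CkIalpha stretch overlaps a UTR and is kept short.
Ptpmeg2 promoter, GA (chrX:9640685-9640745): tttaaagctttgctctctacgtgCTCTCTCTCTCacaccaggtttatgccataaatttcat
Hex-A promoter, GA (chrX:9585612-9585672): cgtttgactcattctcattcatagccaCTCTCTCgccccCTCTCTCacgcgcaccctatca
prage promoter, GA (chrX:1830848-1830908): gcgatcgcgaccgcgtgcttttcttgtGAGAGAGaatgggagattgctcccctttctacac
Rala intron, GA (chrX:3718750-3718810): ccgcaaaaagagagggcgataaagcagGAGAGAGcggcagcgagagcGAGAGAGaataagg
Rala intron, CA (chrX:3718661-3718721): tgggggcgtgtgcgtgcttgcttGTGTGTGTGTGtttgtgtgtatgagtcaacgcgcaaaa
CkIalpha promoter, CA (chrX:12654490-12654514): tagcaatgaGTGTGTGTGTGTGTGt

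The X held fewer kay peaks than its size. Its 463 peaks were 10.7% of the 4317 nuclear peaks (95% interval 9.84 to 11.7%), while the X makes up 17.6% of nuclear sequence length (exact binomial test, two-sided, p = 3.90e-36). Counted per Mb, the X had 19.7 peaks and the autosomes together 34.9. The X also held 16.6% of annotated transcription starts, and its share of peaks was below that too (exact binomial test, p = 1.34e-27). Per 1000 starts there were 119 peaks on the X and 196 on the autosomes. Each of the 4 large autosomal arms was denser than the X, with 30.1 to 40.6 peaks per Mb. The small chromosome 4 stood apart with 172 peaks per Mb from 232 peaks, none with a signal over 113. Without chromosome 4 the X share was 11.3%. In the lists of the single replicates the X held 11.4% of nuclear peaks in replicate 1 and 10.9% in replicate 3.

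Peaks cluster along the genome, and a cluster of neighbours could be read as many sites. Summits less than 10 kb apart were therefore also joined, a choice made after the data were seen. The 463 X peaks then made 196 clusters and the 3854 autosomal peaks 1408, which left the X with 12.2% of clusters (exact binomial test against its length, p = 4.81e-09). A cluster held 2.36 peaks on average on the X and 2.74 on the autosomes. On the X, 36.9% of peaks lay in clusters of at least 5, against 47.1% on the autosomes. The large autosomal arms ranged from 38.5% on 2R, close to the X, to 52.1% on 2L, and chromosome 4 had 83.6%. Peaks per cluster ran from 2.53 on 2R to 2.89 on 2L, with 6.11 on chromosome 4. The densest stretch of 1 Mb on the X, the fourth from the left end, held 42 peaks, and the ninth held 41. The 21st held 3.

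At the level of genes, 167 of 2196 X protein-coding genes (7.60%, interval 6.57 to 8.79%) had a pooled summit at most 1 kb from an annotated start. On the autosomes 1361 of 11749 had one (11.6%, interval 11.0 to 12.2%), and over all protein-coding genes the share was 11.0%. The odds ratio was 0.628 (Fisher's exact test, p = 1.41e-08). With all annotated genes included, the shares were 6.93% on the X and 11.4% on the autosomes (Fisher's exact test, p = 1.87e-13). The median of the strongest summit per marked protein-coding gene was a signal of 45.9 on the X and 50.6 on the autosomes.

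In the pooled list no difference in rank by signal between X and autosomal peaks passed the test. Their median signal was 41.5 (quartiles 35.5 and 55.5, highest 234), against 42.4 on the autosomes (quartiles 36.0 and 56.4, highest 696). The highest X peak took rank 24 among nuclear peaks. Of all nuclear peaks 6.81% had a q-value of at most 0.05, which 30 X peaks (6.48%) and 264 autosomal peaks (6.85%) reached (Fisher's exact test, adjusted p = 0.935 over 5 comparisons of rank). In the top 10% by signal were 45 of 463 X peaks (9.72%) and 386 of 3854 autosomal ones (Fisher's exact test, adjusted p = 0.935). In the top 5% were 3.46% of X peaks and 5.16% of autosomal peaks (Fisher's exact test, adjusted p = 0.397). Of all nuclear peaks 3.82% were also in the authors' optimal list, made after the irreproducible discovery rate step. The count was 12 X peaks (2.59%) and 153 autosomal peaks (3.97%), and this difference did not pass either (Fisher's exact test, adjusted p = 0.397).

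**Figure D1:**
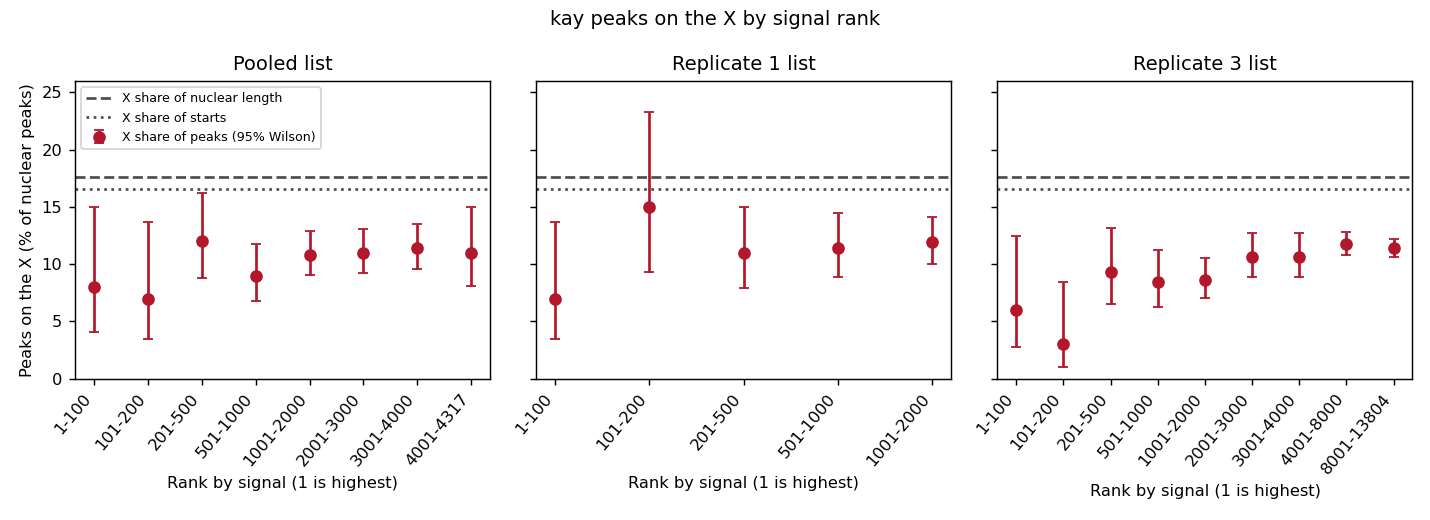
The share of nuclear kay peaks that lie on the X (vertical axis, percent, with 95% Wilson intervals) is plotted by rank of signal for the pooled list and for each replicate's list, beside the X share of nuclear length (dashed) and of transcription starts (dotted). In the pooled list the share lies between 7.00% and 12.0% in every bin of rank, below both lines.

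In bins of rank of the pooled list, the X share was 8.00% in ranks 1 to 100 and 7.00% in ranks 101 to 200. It was 12.0% in ranks 201 to 500 and 11.0% in the last bin, so the bins had no steady order. The list of replicate 3 differed. There the X share was 6.00% in its first 100 ranks, 3.00% in the next 100 and 11.4% past rank 8000. In that list 1.92% of X peaks and 3.40% of autosomal peaks had a q-value of at most 0.05 (Fisher's exact test, p = 0.00152), and 7.69% of X peaks and 10.3% of autosomal peaks were in its top 10% (Fisher's exact test, p = 0.00123). In the list of replicate 1 the top 10% held 22 of 231 X peaks (9.52%), with no difference from the autosomal peaks past the threshold (Fisher's exact test, p = 0.907).

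A peak that overlapped a peak in both replicate lists was found for 189 X peaks (40.8%) and 1524 autosomal peaks (39.5%), and for 39.7% of all nuclear peaks (Fisher's exact test, adjusted p = 0.692 over 3 comparisons). Both replicates entered the pooled list, so this overlap is partly built in. Pooled peaks can also overlap each other, and neighbours can then match the same replicate peak. The overlapping pooled peaks of 87.0 and 62.9 in an intron of CG1578 did so in both replicate lists. How many peaks did so was not counted. Replicate 3, whose list is the longer one, covered 440 X peaks, 251 of them alone. Replicate 1 alone covered 17, and 6 X peaks had no overlapping peak in either list. Overlap went with signal: 80.0% of the 25 highest X peaks were in both lists, 55.0% of those ranked 101 to 200 on the X, and 11.7% of the 163 lowest.

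**Figure D2:**
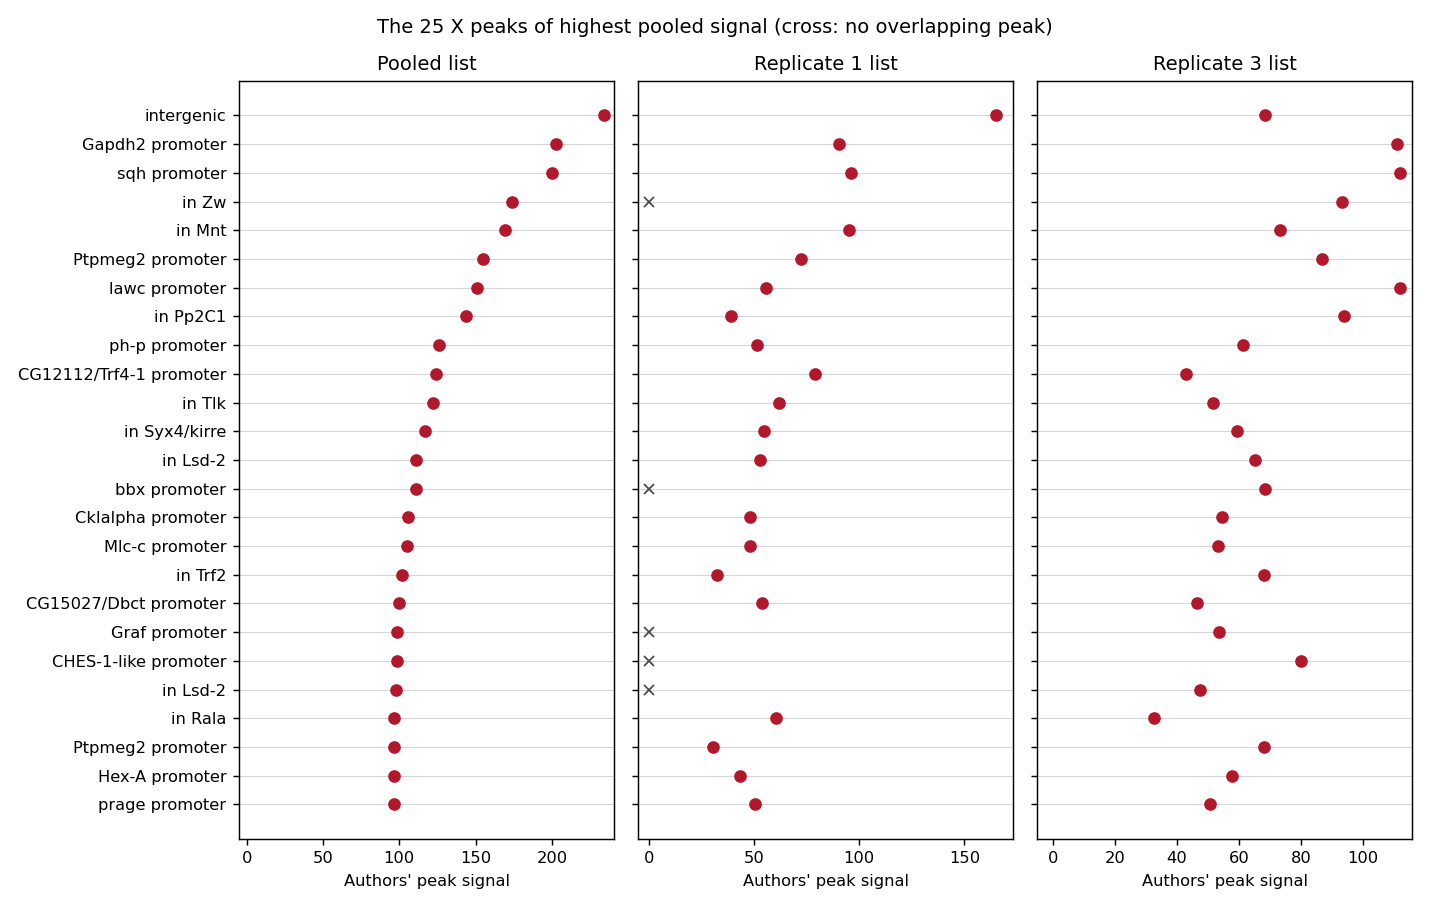
The authors' peak signal (horizontal axis, own scale per list) is plotted for the 25 X peaks of highest pooled signal, named by their gene, in the pooled list, the replicate 1 list and the replicate 3 list. A cross stands at 0 where a replicate list has no overlapping peak, which is so for 5 peaks in replicate 1 and for none in replicate 3.

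The highest X peak lay between genes, at chrX:22432881-22433300 on dm6, 11136 bp upstream of the nearest annotated start, that of CG14621. Its pooled signal was 234. In replicate 1 its signal was 165, rank 8 of that list, and in replicate 3 it was 68.5, rank 206. It held none of the 8 motifs searched. Next came the promoter of Gapdh2, which encodes the glycolytic enzyme glyceraldehyde-3-phosphate dehydrogenase, with a pooled signal of 203. The Gapdh2 peak had 90.4 in replicate 1 and 111 in replicate 3, ranks 40 and 41. The sqh promoter peak had 200 in the pooled list, 96.3 in replicate 1 and 112 in replicate 3, ranks 36 and 40, with its summit on the annotated start. Gapdh2 and sqh thus ranked nearly alike in the replicates, unlike the intergenic peak.

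The fourth X peak lay in an intron of Zw, 880 bp upstream of the antisense gene asRNA:CR44512, with a pooled signal of 174. It had 93.1 in replicate 3 and no overlapping peak in the shorter list of replicate 1, and the authors' optimal list holds it. Zw makes NADPH in the pentose phosphate pathway. The fifth, with 169, was in an intron of Mnt, which encodes the bHLH-zip antagonist of Myc, and was rank 38 in replicate 1 and rank 166 in replicate 3. A promoter of Ptpmeg2 had 155 in the pooled list, 72.3 in replicate 1 and 86.9 in replicate 3. The lawc promoter, within 1 kb of a start of Trf2, which encodes a TBP-related factor, had 151 in the pooled list, 55.8 in replicate 1 and 112 in replicate 3. An intron of Pp2C1 had 144 in the pooled list, 39.2 in replicate 1 and 93.9 in replicate 3. Within its own list the lawc peak was rank 130 in replicate 1 and rank 39 in replicate 3, and the Pp2C1 peak was rank 341 in replicate 1 and rank 79 in replicate 3. Ptpmeg2 was rank 69 in replicate 1 and rank 100 in replicate 3, and the lists differ in length.

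The last 4 of the 12 X peaks in the optimal list were at ph-p, CG12112, Tlk and Syx4. ph-p, a subunit of Polycomb repressive complex 1, had 126 at its promoter. The promoter shared by CG12112 and Trf4-1 had 124 and was rank 56 in replicate 1 but rank 806 in replicate 3. Tlk, which encodes the tousled-like kinase, had 122 in an intron, and Syx4, which encodes a syntaxin, had 117 in an intron. In the 25 highest X peaks, pooled signals ran from 96.4 to 234 with a median of 111. Replicate 3 had a peak at each of them (32.7 to 112, median 65.1), and replicate 1 at 20 of them (30.5 to 165, median 54.4). The remaining 13 included a pair in introns of Lsd-2, which encodes a perilipin of lipid droplets (111 and 97.6). They also included the promoters of CkIalpha (106), Mlc-c, the essential light chain of nonmuscle myosin (105), Graf (98.5), CHES-1-like, a forkhead family gene (98.5), and Hex-A (96.4). The Mlc-c summit also lay within 500 bp of starts of small RNAs annotated there, mir-3645 among them. The 26th was in an intron of upd3, a ligand of the JAK-STAT pathway, with 95.9 in the pooled list, 41.9 in replicate 1 and 51.8 in replicate 3.

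Of the 30 X peaks with a q-value of at most 0.05, 17 had promoter summits, 12 were in introns and 1 was intergenic, and 25 were in both replicate lists. The last peak inside this limit, at the Sptr promoter, had a signal of 92.4. The first outside, in an intron of nAChRalpha3, had 90.9. The lowest q-value in the list, 0.00315, was shared by 9 X peaks and 116 autosomal peaks, so q did not order the highest peaks.

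Each summit was put in 1 of 7 annotation classes, with promoter meaning within 500 bp of a transcription start. Over all nuclear peaks 34.6% were promoter summits. On the X there were 156 of them (33.7%, interval 29.5 to 38.1%), and on the autosomes 1337 (34.7%, interval 33.2 to 36.2%), which was no difference past the threshold (Fisher's exact test, adjusted p = 0.793). Promoter windows took up 12.6% of all X bases and 13.8% of autosomal bases. Introns held 231 X peaks (49.9%) and 45.8% of autosomal peaks (Fisher's exact test, adjusted p = 0.242). Intergenic sequence held 30 X peaks (6.48%) and 394 autosomal peaks (10.2%), with an unadjusted p of 0.0102 by Fisher's exact test and an adjusted p of 0.0712. The class takes up 22.6% of X bases and 28.2% of autosomal bases. Coding exons held 1 X peak (0.216%) and 43 autosomal peaks (1.12%), and they take up 13.9% of X bases and 13.7% of autosomal bases. In 3′ UTRs were 31 X peaks (6.70%) and 5.63% of autosomal peaks. In 5′ UTRs were 7 X peaks (1.51%) and 1.43% of autosomal peaks, and in other exons 7 X peaks (1.51%) and 1.09% of autosomal peaks.

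**Figure D3:**
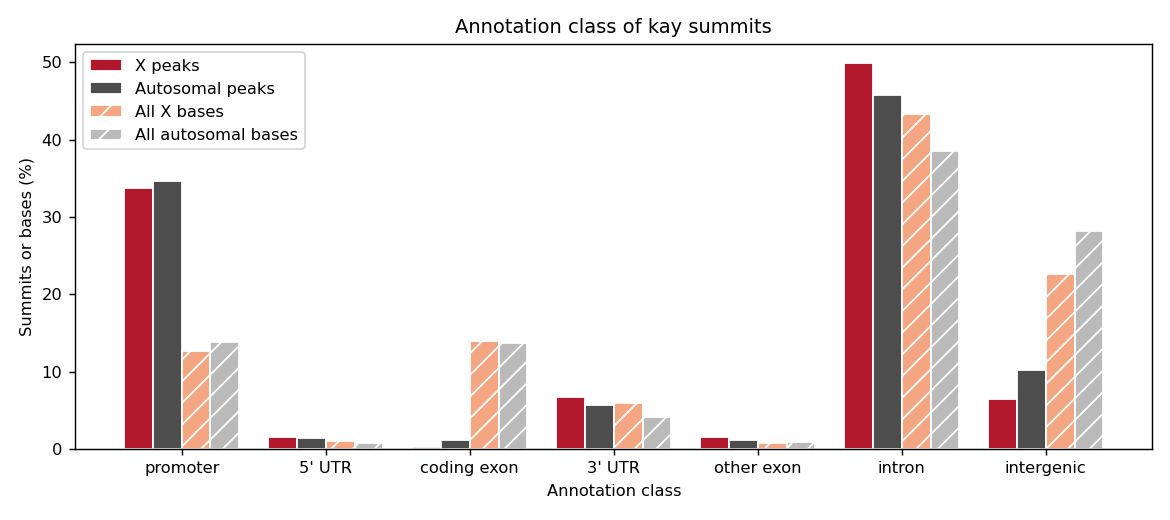
Solid bars give the share of kay summits in each annotation class on the X and on the autosomes, and hatched bars give the share of all bases of the X and of the autosomes in that class (vertical axis, percent). Promoter summits made up 33.7% of X peaks and 34.7% of autosomal peaks, where promoter windows are 12.6% and 13.8% of bases.

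For gene type, each promoter summit was assigned to its nearest annotated start, so the Mlc-c promoter peak counts as noncoding. With protein-coding starts alone, 143 X summits lay within 500 bp of one. By nearest start, the promoters marked on the X were mostly of protein-coding genes, 140 of 156 (89.7%). Another 15 were of noncoding RNA genes and 1 of a snoRNA gene. On the autosomes 1160 of 1337 (86.8%) were of protein-coding genes and 37 (2.77%) of tRNA genes, a class with none among the X promoter summits. The X does have tRNA genes, and how many there are on the X and the autosomes was not compared. The median distance of a promoter summit from its start was 222 bp on the X and 182 bp on the autosomes, and 34.0% of X promoter summits and 32.0% of autosomal ones lay downstream of the start. Starts of 2 or more genes lay within reach of 17 of the 156 X promoter summits and 229 of the 1337 autosomal ones. Such a summit marks each of its genes in the counts by gene above, where the test takes genes as independent. What this adds to the difference between those shares was not tested. Promoter peaks had a median signal of 46.2 on the X and 47.1 on the autosomes, and other peaks 40.2 on the X and 40.6 on the autosomes. Promoters were 60.0% of the 25 highest X peaks and 26.4% of the 163 lowest.

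Outside promoters and introns, and after the intergenic peak that is the highest on the X, signals reached at most 83.9. The highest in a 3′ UTR, at CtsB, a lysosomal cathepsin gene, had 82.2, and the next, at stas, 63.9. The highest in a 5′ UTR, at lawc, had 75.0. Among other exons the highest, 83.9, was in the noncoding gene lncRNA:Vinr. The only X summit in a coding exon, in MSBP, had 37.4. After the highest X peak, the next intergenic ones had 74.3, near lncRNA:CR44619, and 68.1, upstream of Tis11, a gene for an mRNA decay factor.

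The AP-1 site TGACTCA was searched on both strands within 100 bp of each summit, in windows of 201 bp, as 1 of 8 motifs. Over all nuclear peaks 5.58% held it. On the X 28 peaks did (6.05%, interval 4.22 to 8.60%), against 213 on the autosomes (5.53%, interval 4.85 to 6.29%), with no difference past the threshold (Fisher's exact test, adjusted p = 0.763). Of all consecutive 201 bp tiles, 1.49% on the X and 1.61% on the autosomes held it. The site lay a median of 46.5 bp from the summit on the X and 38.0 bp on the autosomes. Peaks with it had a median signal of 54.9 on the X and 53.2 on the autosomes, and peaks without it 41.3 on the X and 42.0 on the autosomes.

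Among the 28 X peaks with the site, 18 were in introns, 8 at promoters and 2 between genes. The replicate lists both had a peak at 19 of them, and replicate 3 alone had one at 9. Among the 19, peaks in introns of RhoGAP15B (37.8) and Tlk (37.3) matched the same replicate peaks as higher X peaks beside them (73.3 and 58.9). Of the 25 highest X peaks 24.0% held the site, and of the 163 lowest 4.29%. The site was 21 bp from the summit at sqh, 56 bp at Zw, 25 bp at Pp2C1, 30 bp at Rala, 69 bp at Hex-A and 5 bp at Imp, whose sequences are printed above. The pooled signals of the 3 lowest of these were 96.6 at Rala, 96.4 at Hex-A and 79.2 at Imp. The Rala peak was rank 106 in replicate 1 and rank 1732 in replicate 3. Further down, the site was found in introns of mys and mew, which encode a beta and an alpha integrin, with signals of 56.0 and 36.7. It was also found 1298 bp upstream of Gapdh2, in a peak of 34.4 that is separate from the Gapdh2 promoter peak.

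GA and CA repeats were more common at X summits. GAGAGAG was within 100 bp of 50 X summits (10.8%, interval 8.29 to 14.0%) and of 214 autosomal ones (5.55%, interval 4.87 to 6.32%), an odds ratio of 2.06 (Fisher's exact test, adjusted p = 1.38e-04). Over all nuclear peaks 6.12% held it. CACACAC was within 100 bp of 77 X summits (16.6%, interval 13.5 to 20.3%) and of 293 autosomal ones (7.60%, interval 6.81 to 8.48%), an odds ratio of 2.42 (Fisher's exact test, adjusted p = 1.66e-08). Over all nuclear peaks 8.57% held it. Both repeats are also more common on the X as a whole. GAGAGAG was in 2.95% of X tiles and 2.34% of autosomal tiles, and CACACAC in 8.06% of X tiles and 5.83% of autosomal tiles. How far the chromosome's own content makes up the difference at summits was not tested. At least 1 of these repeats was at 115 X summits (24.8%) and 465 autosomal ones (12.1%), and 12 X summits held both.

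**Figure D4:**
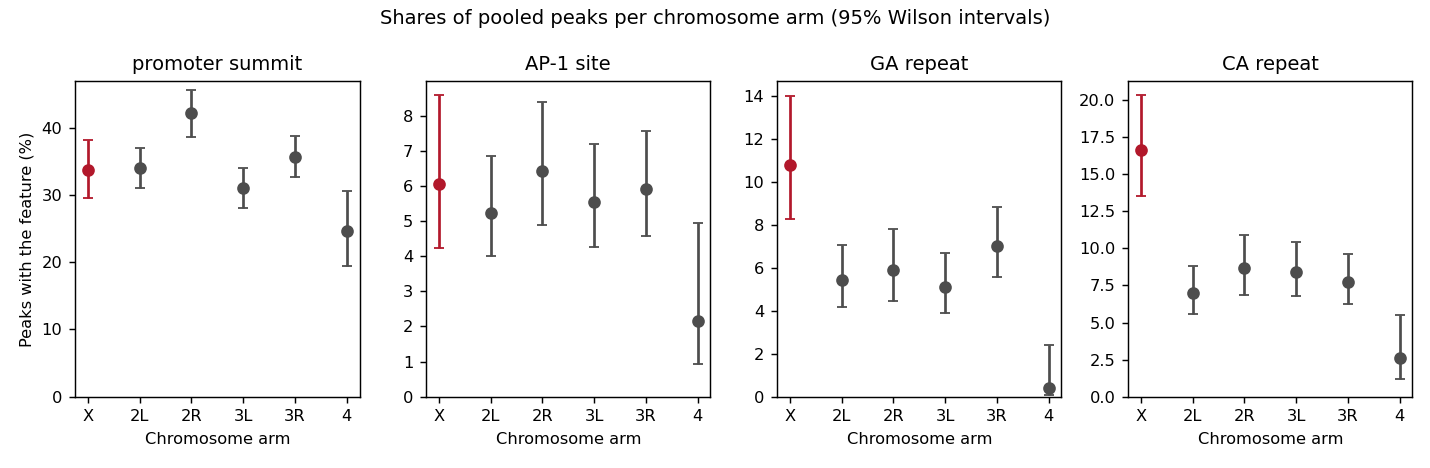
Points give the share of kay peaks with a promoter summit, an AP-1 site, a GA repeat or a CA repeat (vertical axes, percent, with 95% Wilson intervals) on the X and on each autosomal arm. The X stands above every autosomal arm for the GA repeat (10.8%) and the CA repeat (16.6%), and within the range of the large arms for the AP-1 site and promoters.

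The 4 large autosomal arms ranged from 5.11 to 7.04% for the GA repeat and from 7.02 to 8.65% for the CA repeat, all below the X. For the AP-1 site they ranged from 5.24 to 6.42%, and for promoter summits from 31.0 to 42.1%, with the X inside both ranges. Chromosome 4 was low in all of these, with 0.431% for the GA repeat and 2.59% for the CA repeat. The median GC content of the windows was 36.3% on the X and 35.3% on the autosomes. None of the other 5 motifs differed past the threshold. The closest was the forkhead motif TGTTTAC, at 5.83% of X summits and 8.38% of autosomal ones (Fisher's exact test, adjusted p = 0.156). The DREF site TATCGATA was at 1.94% of X summits and 1.45% of autosomal ones.

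The differences in repeats were then taken apart by class, rank and replicate, in 26 comparisons chosen after the data were seen and adjusted together. At promoter summits the GA repeat was at 12.8% on the X and 7.26% on the autosomes (Fisher's exact test, adjusted p = 0.0421), and elsewhere at 9.77% on the X and 4.65% on the autosomes (adjusted p = 0.00154). The CA repeat was at 20.5% of X promoter summits and 8.00% of autosomal ones (Fisher's exact test, adjusted p = 5.28e-05), and at 14.7% of other X summits and 7.39% of other autosomal ones (Fisher's exact test, adjusted p = 2.43e-04). Each repeat also differed in peaks without the other. In peaks that lack CACACAC the GA repeat was at 9.84% on the X and 4.83% on the autosomes (Fisher's exact test, adjusted p = 6.32e-04). In peaks that lack GAGAGAG the CA repeat was at 15.7% on the X and 6.90% on the autosomes (Fisher's exact test, adjusted p = 2.32e-07). Both differences held in peaks found in both replicates, with 14.3% on the X and 7.35% on the autosomes for GAGAGAG (Fisher's exact test, adjusted p = 0.00568) and 19.6% on the X and 8.92% on the autosomes for CACACAC (adjusted p = 1.51e-04).

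By rank, the difference was clearest in ranks 501 to 2000. There CACACAC was at 24.8% of X summits and 8.46% of autosomal ones (Fisher's exact test, adjusted p = 2.32e-07), and GAGAGAG at 13.7% of X summits and 6.38% of autosomal ones (Fisher's exact test, adjusted p = 0.00551). In ranks 1 to 500, with 51 X peaks, neither passed: CACACAC was at 21.6% on the X and 13.6% on the autosomes (Fisher's exact test, adjusted p = 0.202), and GAGAGAG at 19.6% on the X and 11.6% on the autosomes (Fisher's exact test, adjusted p = 0.176). Whether the difference itself changes with rank was not tested. In the list of replicate 3 both repeats differed, with GAGAGAG at 6.50% on the X and 3.84% on the autosomes (Fisher's exact test, adjusted p = 1.55e-05), and CACACAC at 11.9% on the X and 6.90% on the autosomes (adjusted p = 3.52e-10). In that of replicate 1, with 231 X peaks, neither passed: GAGAGAG was at 11.3% on the X and 6.69% on the autosomes (Fisher's exact test, adjusted p = 0.0600), and CACACAC at 13.4% on the X and 9.48% on the autosomes (adjusted p = 0.164). With 1 summit per cluster both differed, GAGAGAG at 11.2% on the X and 4.76% on the autosomes (Fisher's exact test, adjusted p = 0.00556) and CACACAC at 15.3% on the X and 8.03% on the autosomes (adjusted p = 0.00737).

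**Figure D5:**
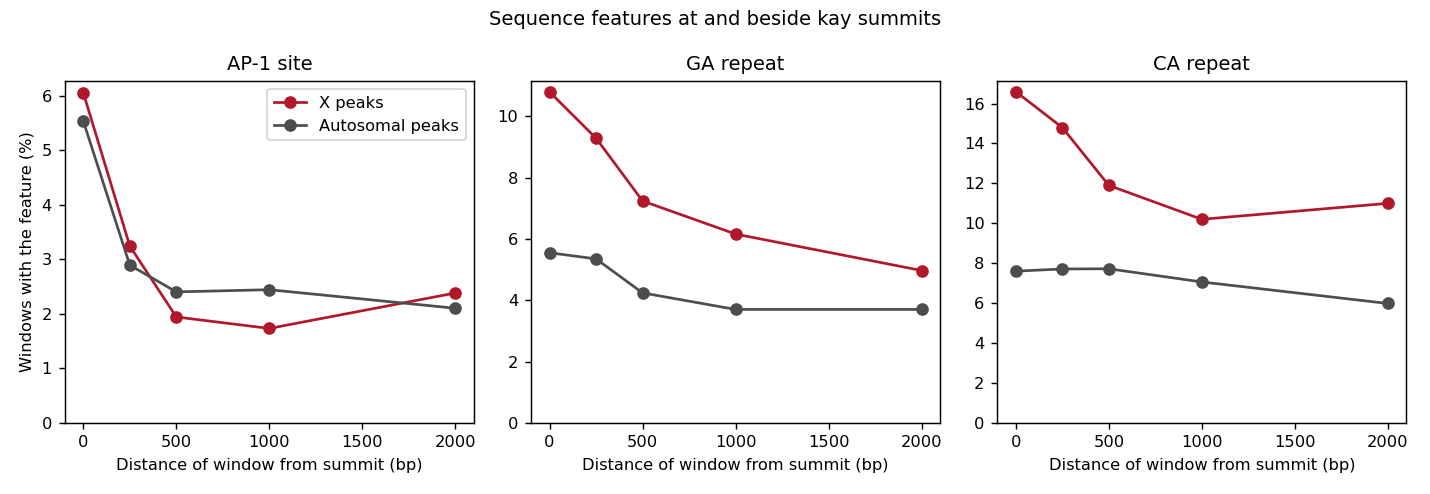
The share of 201 bp windows that hold each feature (vertical axes, percent) is plotted against the distance of the window from the summit (horizontal axis, bp, windows on both sides joined) for X and autosomal peaks. The AP-1 site drops from 6.05% at X summits to 3.24% at 250 bp, while the repeats on the X decline over a longer distance and stay above the autosomal line.

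On the X, the repeats fell off over a longer distance from the summit than the AP-1 site. At 250 bp to either side the AP-1 site was in 3.24% of X windows and 2.89% of autosomal windows, at 1000 bp in 1.73% of X windows and 2.44% of autosomal windows, and at 2000 bp in 2.38% of X windows and 2.10% of autosomal windows. GAGAGAG was still in 9.29% of X windows and 5.35% of autosomal windows at 250 bp, and in 4.97% of X windows and 3.70% of autosomal windows at 2000 bp. CACACAC was in 14.8% of X windows and 7.71% of autosomal windows at 250 bp, and in 11.0% of X windows and 5.98% of autosomal windows at 2000 bp. On the autosomes CACACAC had no rise at the summit, with 7.60% there and 7.72% at 500 bp. On the X it was in 10.2% of windows at 1000 bp, so it did not fall further by 2000 bp. No test was made on these windows.

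Several X genes held many peaks, counted inside the gene or at most 1 kb from one of its starts. Tlk held 18 summits over its 69.8 kb, with signals of 32.0 to 122, and CHES-1-like held 13 over 27.0 kb, up to 98.5. Mnt held 11 over 29.9 kb, from 31.9 to 169, and none of them lay within 500 bp of a start. Trf2 held 8, up to 151, and Smr, which encodes a nuclear corepressor, held 7, up to 90.3. sd, the TEAD factor of the Hippo pathway, held 6 up to 76.0, and Moe, which encodes moesin, a linker of actin to the membrane, held 6 up to 60.1. Gs2, which encodes a glutamine synthetase and spans 7.37 kb, had 5 by this count. Of these, the peak with a signal of 47.5 lay outside the gene, 824 bp upstream of a start. The largest cluster, at CHES-1-like, had 14 summits in 19.4 kb, 7 of them in both replicate lists. A gene's length and its peak count go together in such counts, and no test was made.

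Gene lists by role give X members of each pathway. The lists were chosen with earlier results of these data known. Their shares can be set by that choice, so they describe the named genes and show no enrichment. For scale, 7.60% of X protein-coding genes have a summit at most 1 kb from a start. Of the same genes, 11.8% have one anywhere in the gene or near its start. Sugar metabolism had a summit near a start in 2 of 4 genes, Gapdh2 (203) and Hex-A (96.4). Zw held one inside (174), and Pgd, another enzyme of the pentose phosphate pathway, had none. Chromatin genes had 4 of 11, namely ph-p (126), Tlk (79.0 near a start), ph-d, the neighbouring copy of ph-p (52.1), and Smr (32.4 near a start). HDAC4, a histone deacetylase, held one inside (47.3). ph-p and ph-d are closely similar tandem copies, and the treatment of reads that fit both is not stated in the labels or files.

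Actomyosin and adhesion had 2 of 13 near a start, sqh (200) and Moe (60.1), and 5 with a summit anywhere. Arp2, which nucleates actin filaments, held 64.2, and the integrin genes mys and if held 56.0 and 37.9. Act5C, the main cytoplasmic actin gene, was 15085 bp from the nearest pooled summit. The longer list of replicate 3 had 1 summit inside Act5C, at rank 13022 of 13804 nuclear peaks. Transcription factors had 3 of 16 near a start, sd (76.0), Mnt (40.2) and CrebB (32.9), and 6 anywhere, Myc (37.1) among these. Insulin and autophagy had 2 of 5 near a start, Atg8a, a ubiquitin-like protein of autophagosomes (88.5), and sgg, a GSK3 kinase (37.8). Endocytosis had 1 of 9, Chc, the clathrin heavy chain (88.1), and chaperones 1 of 2, Hsc70-3 (49.8). Ribosomal protein genes had 2 of 13, RpS15Aa (35.7) and RpS28b (35.1), both low. Neuronal genes had 2 of 12 near a start, Hk (35.4) and dnc (34.8), and 5 anywhere, with norpA, the phospholipase C of phototransduction, highest (73.8). Pigment and cuticle genes had 2 of 6, g (39.7) and cm (35.5). Of the circadian genes, sgg had one and per had none.

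Other lists had no member with a summit near a start. None of the 5 JNK and stress kinase genes on the X had a pooled summit near a start or inside. The JNK kinase hep was 35318 bp from the nearest pooled summit and 422 bp from the nearest in replicate 3's longer list. For Tak1, also on that list of kinases, these distances were 131693 and 527 bp. Of the 5 JAK-STAT genes, upd3 alone held one, in an intron, while upd1 and upd2, its neighbouring paralogues, were 11192 and 39211 bp away from the nearest pooled summit. The 4 Notch pathway genes and the 3 immunity genes had none in the pooled list. In replicate 3's list the nearest summit to N was 1881 bp away. Of 6 genes of yolk and the female germ line, Sxl, the switch gene of sex determination, held one inside (32.0), where the lowest signal on the X is 31.7. Dosage compensation has 3 genes of its list on the X, and none had a summit near a start: roX1 was 5917 bp, roX2 20752 bp and mof, the acetyltransferase of the MSL complex, 43631 bp from the nearest pooled summit. In replicate 3's list the nearest summits were 5925 bp from roX1, 18478 bp from roX2 and 8560 bp from mof.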

How the data were processed

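kay ChIP-seq peak lists from 2 biological replicates of 1 group were used as deposited. Per the deposited listing, each replicate list came from that library's alignments with 1 control file, and the pooled list from the alignments of both replicates with 1 control file. The labels name the builds dm6 and dm3. Neither the aligner, the caller and its settings nor the depth was given in the sources used here. Per deposited line there is the authors' peak signal, the authors' -log10 q-value and how far the summit lies from the start. The signal has no stated unit, and its scale differs between lists. The optimal list was matched to the pooled list by identical interval and summit, and replicate lists by an overlap of at least 1 bp.

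All peaks of the pooled dm6 list on the X were taken. Summits were joined to the Release 6 genome sequence of RefSeq and to Ensembl annotation release 115, on the same coordinates. Every dm6 peak ended within those chromosome lengths. A gene's start counted as marked within 1 kb. Python 3.11.15, pandas 2.3.3, scipy 1.17.1 and matplotlib 3.10.9 were used. X and autosomal peaks were compared by Fisher's exact test, with Benjamini-Hochberg adjustment over 7 classes, 8 motifs, 5 ranks and 3 replicate overlaps, and the X share by an exact binomial test. The code was tested on simulated data. Of the 17 gene lists, described by counts only, 1 symbol (cho) was not matched. The dm3 lists gave only a share of peaks on the X.

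Named genes were those at the 25 highest X peaks, the X peaks of the optimal list, up to 4 per gene list, up to 3 per class, and the 10 highest peaks with TGACTCA. Genes with several peaks, nAChRalpha3, Sptr, mew, HDAC4, if, dnc, Myc and the genes given without a peak were named after their values were seen. The members and lists were chosen with earlier results of these data known.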

Additional observations from a re-analysis of the deposited data

How the results depend on the processing

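The X share of peaks stayed below the X share of length or starts under all 9 alternatives (7.27 to 12.2%), and the X share of marked genes stayed below the autosomal share under all 10 (0.410 to 19.9% of X genes). Both counts include the setting of 1 summit per interval. It could only repeat the main values, since the 463 X and 3854 autosomal intervals are all distinct, so it is no check. The differences in repeats did not pass the test in the shorter lists. Among pooled peaks with q at most 0.05, GAGAGAG was at 20.0% on the X and 14.4% on the autosomes, and CACACAC at 23.3% on the X and 18.2% on the autosomes (Fisher's exact test, adjusted p = 0.693 each). In the optimal list, with 12 X peaks, GAGAGAG was at 16.7% on the X and 15.0% on the autosomes, and CACACAC at 16.7% on the X and 17.6% on the autosomes, the other way round. Within 50 bp GAGAGAG was at 4.75% on the X and 2.62% on the autosomes (Fisher's exact test, adjusted p = 0.0667), and the AP-1 site at 3.24% on the X and 3.35% on the autosomes. Promoter summits were more frequent on the X in 2 settings: 56.7% on the X and 53.4% on the autosomes among peaks with q at most 0.05, and 30.9% on the X and 30.6% on the autosomes with protein-coding starts alone. With 1 summit per cluster, 43.4% on the X and 47.4% on the autosomes were in both replicates. In these 4 reversals on promoters, AP-1 and replicates neither the main value nor the alternative passed the test. With each replicate left out in turn, X values ran from 6.50 to 11.3% for GAGAGAG, from 11.9 to 13.4% for CACACAC, from 1.92 to 5.19% for q at most 0.05 and from 7.69 to 9.52% for the top 10%. Without replicate 1 the X was lower in both of these ranks. The cause was not tested. The test of q was not run on the optimal list or on the peaks with q at most 0.05, where it is void. No paired analysis was possible because there is 1 group and no contrast between groups. The 2 replicates limit what can be said of spread between flies, and replicate 1's list is short.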
